A study of Rattus norvegicus with 12 samples.

Results

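The arms of the miR-199a and miR-214 hairpins were examined in small RNA libraries of rat aorta. They were taken by name from the deposited table, as all rows whose identifier without the rat prefix and the arm suffix is miR-199a or miR-214. The rule uses no measured value and gave 4 of 641 listed mature miRNAs, namely rno-miR-199a-3p, rno-miR-199a-5p, rno-miR-214-3p and rno-miR-214-5p, and the prefix is left out from here on. The first 3 passed a filter on low values (at least 1 rpm, a reads-per-million unit, in 6 or more of 12 libraries), while miR-214-5p did not. All 12 aortas were labelled as coming from female rats of the spontaneously hypertensive strain (SHR), which develops high blood pressure. The 6 control samples had the treatment label saline and the other 6 the label EWH, and the series title speaks of peptides derived from egg white and of blood pressure. No age, dose or length of treatment is given in the sources used here. The labels do not tie the samples to separate animals, so each p-value reflects only how these samples vary, which may be technical. The question put by the design was whether these miRNAs differ between the EWH and the control aortas.

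MicroRNAs are short RNAs cut from the stems of hairpins, and each arm of a hairpin (5p and 3p) can guide the silencing of messenger RNAs that match its seed, the bases 2 to 8. In mammals the hairpins Mir199a2 and Mir214, which give miR-199a and miR-214, are made from the noncoding RNA Dnm3os. It is read from the strand opposite to the dynamin gene Dnm3. The factor Twist1 switches it on in mesenchymal cells such as fibroblasts and smooth muscle. Whether all reads of miR-199a come from Mir199a2 was not examined. MiR-199a-5p is known for targeting caveolin and the hypoxia factor Hif1a, miR-199a-3p for targeting mTOR, and miR-214-3p for targeting the sodium-calcium exchanger. The cluster is known from fibrosis and from injured heart and vessel.

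The mature sequences are shown because they tell the 3 abundant arms apart and place a further miRNA, miR-3120, on the same stem as miR-214. They are from RefSeq (build GRCr8), where all 4 arms were matched, and the capitals mark the seed.
miR-199a-3p: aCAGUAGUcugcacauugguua
miR-199a-5p: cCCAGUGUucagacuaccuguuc
miR-214-3p: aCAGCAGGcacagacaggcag
miR-214-5p: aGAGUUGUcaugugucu
miR-3120: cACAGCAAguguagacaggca
The mature lengths are 22, 23, 21, 17 and 21 nt in this order. No 2 of the 5 share a seed, and no other of the 693 mature miRNAs in the RefSeq table has the seed of any of them. The seeds of miR-199a-3p and miR-214-3p differ at 2 positions, U5C and U8G (the base of miR-199a-3p, the position from its 5′ end, then the base of miR-214-3p), and 8 of 21 positions are the same over the whole length, aligned without gaps.

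The Mir214 hairpin shows how miR-3120 lies on it (RefSeq, GRCr8, chr13:77121645-77121752, plus strand, 108 bases). The first stretch of capitals is the complement of miR-3120 and the second is miR-214-3p.
Mir214 hairpin: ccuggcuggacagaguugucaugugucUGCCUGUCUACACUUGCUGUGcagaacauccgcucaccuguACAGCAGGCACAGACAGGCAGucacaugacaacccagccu
MiR-3120 is annotated on the minus strand, and its complement fills bases 28 to 48 of the Mir214 hairpin, on the arm facing miR-214-3p (bases 69 to 89). The listed miR-214-5p fills bases 12 to 28 and shares 1 base with that stretch. The strand setting of the counting is not given in the sources used here, so reads of this stretch on either strand cannot be told apart.

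The deposited values were whole reads divided by library totals of 23887799 to 24772944 reads, so each read counted for 0.0404 to 0.0419 rpm and a value of 0 allows up to 3 reads, or 0.121 to 0.126 rpm. Intervals and floors from reads cover counting error only, since no molecular identifiers are mentioned for these reads. By the marker miRNAs of other cell types, the median summed level of control and of EWH libraries was 406005 and 376747 rpm for contractile smooth muscle (miR-143 and miR-145), 5371 and 5066 rpm for endothelium (miR-126a), 317 and 121 rpm for epithelium, and 163 and 129 rpm for leukocytes. It was 245 and 176 rpm for erythrocytes, 120 and 398 rpm for neurons and glia, 553 and 927 rpm for striated muscle and 392 and 503 rpm for hepatocytes. Single miRNAs carry some of these sums: of 5 tested striated muscle markers 3 were lower in EWH, while miR-1-3p averaged 394 and 807 rpm, and of 3 hepatocyte markers 2 were lower and miR-122-5p higher. The 4 erythrocyte markers split into 2 lower and 2 higher. The smooth muscle sums were mostly miR-143-3p, with means of 395202 and 383398 rpm. Of 6 tested epithelial markers 5 were lower and miR-205 higher. The largest of them by mean was miR-203a-3p, at 179 ± 205 and 99.0 ± 43.8 rpm (n = 6 each, SD). All 4 tested markers of neurons and glia were higher in EWH, beside 121 of all 303 tested miRNAs. No listed marker was at 0 in all libraries. On the first principal component, with 46.3% of the variance between profiles, EWH 3 (11.97) and EWH 4 (16.2) stood apart from the other libraries (−7.94 to 4.94). Without EWH 3 or without EWH 4 the log2 fold change was −0.24 or −0.29 for miR-199a-3p, −0.13 or −0.21 for miR-199a-5p and 0.00 or −0.02 for miR-214-3p. Control 1 stood apart from the other libraries on the second principal component, which holds 22.04% of that variance (12.2, with the others between −9.05 and 3.58).

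MiR-199a-3p had the most reads of the cluster's arms in every library, followed by miR-199a-5p and, far below, miR-214-3p. Whether reads of different mature sequences reflect their amounts equally was not tested. Over the 12 libraries miR-199a-3p averaged 3063 rpm and ranked 23 of 641, miR-199a-5p averaged 537 rpm and ranked 47, and miR-214-3p averaged 19.4 rpm and ranked 157. Of the reads of the cluster, 84.4% ± 1.55 were miR-199a-3p, 15.1% ± 1.56 were miR-199a-5p and 0.536% ± 0.0674 were miR-214-3p (SD, n = 12). The cluster held 0.502% ± 0.0833 of the listed miRNA reads in control and 0.417% ± 0.0635 in EWH (n = 6 each, SD). The order of these 3 arms was the same in all 12 libraries, with gaps much wider than the spread of each. In a bulk sample fewer cells that make a miRNA and less of it per cell cannot be told apart.

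Next to miR-199a-3p in mean level stood miR-3596a (3822 rpm) above and miR-3557-5p (2726 rpm) below. MiR-199a-5p stood between miR-676 (547 rpm) and miR-140-3p (532 rpm), gaps smaller than its own spread between replicates. MiR-214-3p stood between miR-434-5p (19.5 rpm) and miR-20a-5p (18.8 rpm), also within its spread, and miR-3120, its neighbour on the hairpin, averaged 18.4 rpm and ranked 159.

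MiR-199a-3p read 2252 (lowest), 3477 (median) and 4004 rpm (highest) in control, and 1996, 2943 and 3117 rpm in EWH. Of the controls 5 lay above all EWH libraries, but control 1 was the second lowest of the 12, so the groups overlapped. The means were 3345 ± 629 rpm in control and 2781 ± 431 rpm in EWH (n = 6 each, SD), a log2 fold change of −0.26 (SE 0.15) on the log2(rpm + 1) scale, or 0.836-fold (95% interval 0.666 to 1.05). It did not pass limma's moderated test over all 303 tested miRNAs (Benjamini-Hochberg adjusted p = 0.331). The size of the log2 fold change, but not its sign, changed with single libraries left out. It was −0.37 without control 1 (limma unadjusted p = 0.0115, Benjamini-Hochberg adjusted p = 0.196) and −0.17 without EWH 2.

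MiR-199a-5p, the other arm of the same hairpin, read 482, 578 and 632 rpm (lowest, median and highest) in control and 438, 511 and 582 rpm in EWH. Of the 6 EWH libraries, 5 lay below the control median, and the groups overlapped over most of their range. The means were 569 ± 55.6 rpm and 506 ± 55.7 rpm (n = 6 each, SD), a log2 fold change of −0.17 (SE 0.10), or 0.889-fold (95% interval 0.767 to 1.03), and limma's Benjamini-Hochberg adjusted p was 0.330. Without control 1 it was −0.22 (limma unadjusted p = 0.0378, Benjamini-Hochberg adjusted p = 0.216).

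MiR-214-3p was at the same mean level in both groups. It read 12.02, 19.7 and 24.2 rpm (lowest, median and highest) in control and 12.9, 19.9 and 23.0 rpm in EWH, from 296 to 587 reads a library, for which counting error alone is 4.13% to 5.81%. The means were 19.4 ± 4.23 rpm and 19.3 ± 3.71 rpm (n = 6 each, SD), with a log2 fold change of 0.00 (SE 0.19) and a limma adjusted p of 0.989 (Benjamini-Hochberg). The 95% interval of the fold, 0.758 to 1.33, still allows a change of either sign, and the sign turned with single libraries left out (−0.12 without control 1, 0.11 without EWH 2).

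MiR-214-5p was close to absent as listed. It had 3 reads in control 2, 2 in EWH 1 and 1 each in control 6 and EWH 6, and was at 0 in the other 8 libraries. All its values lie at or under the floor of 3 reads, so no fold is given. MiR-3120, whose complement fills the arm facing miR-214-3p, read 15.4, 19.0 and 23.6 rpm in control and 15.01, 18.6 and 19.96 rpm in EWH (lowest, median and highest). It exceeded miR-214-3p in 4 of 12 libraries, and the ratio of the pair was 1.01 ± 0.191 in control and 0.948 ± 0.180 in EWH (n = 6 each, SD). Its log2 fold change was −0.08 (SE 0.13; limma Benjamini-Hochberg adjusted p = 0.734).

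**Figure D1:**
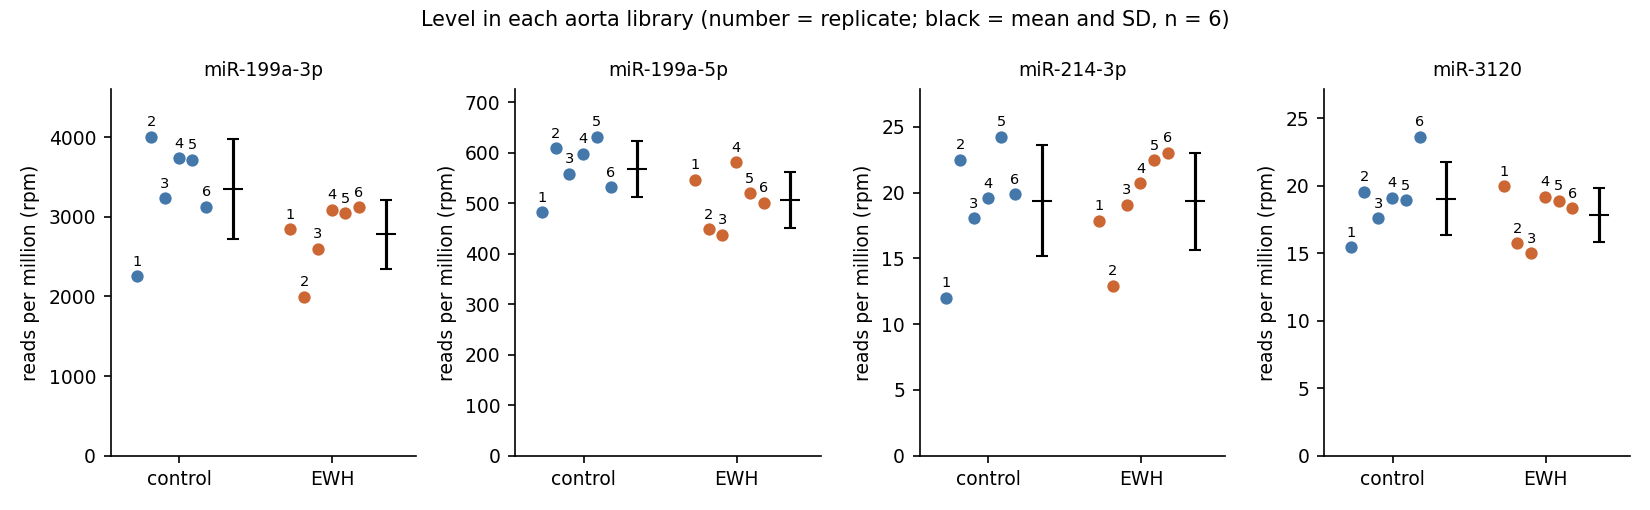
Level in rpm (reads-per-million units, y axis from 0) of miR-199a-3p, miR-199a-5p, miR-214-3p and miR-3120 in each library, 1 point per library with its replicate number, and the mean with its SD in black (n = 6). Control 1 and EWH 2 are the lowest of their groups for miR-199a-3p and miR-214-3p, and the groups overlap in all panels.

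None of the 3 tested arms was called, which has to be read against the whole table. Limma called 0 of the 303 tested miRNAs (0.0%) at a Benjamini-Hochberg adjusted p under 0.05, with 70 at an unadjusted p under 0.05, and 24 of these were lower in EWH (7.92% of the tested). No arm was among those 70: miR-199a-5p ranked 101, miR-199a-3p 102 and miR-214-3p 301 by p. On the recovered reads edgeR's quasi-likelihood test called 40 (13.2%) and DESeq2 63 (20.8%), and again none of the 3 arms, with Benjamini-Hochberg adjusted p of 0.301 (edgeR) and 0.297 (DESeq2) for miR-199a-3p, 0.489 and 0.440 for miR-199a-5p and 0.945 and 0.953 for miR-214-3p. The limma count was 24 without EWH 2 and 1 without EWH 4, and the edgeR count was 0 with control 1 left out, a choice made after seeing the data. Values of the groups did not overlap for 5 miRNAs (1.65%; miR-186-5p, miR-140-3p, miR-27a-5p, miR-409b and miR-20a-5p, named after their values were seen), none of them an arm of the cluster. Of the tested miRNAs 182 were lower and 121 higher in EWH, and the median log2 fold change was −0.06, so a small negative value was common.

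The spread of the arms between replicates was moderate. Among 183 tested miRNAs averaging at least 10 rpm, the coefficient of variation of miR-199a-5p was 9.77% in control and 11.01% in EWH, where 21 and 33 miRNAs varied less. It was 18.8% and 15.5% for miR-199a-3p and 21.8% and 19.2% for miR-214-3p, against a median over the 183 of 22.4% and 19.0%.

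The 2 arms of miR-199a were compared within each library. RefSeq's table places both on the Mir199a2 hairpin, and whether other hairpins give the same mature sequences was not examined. The rpm of miR-199a-3p was 5.84 ± 0.643 times that of miR-199a-5p in control and 5.49 ± 0.644 times in EWH (n = 6 each, SD), with 4.67 in control 1 and 4.45 in EWH 2 as the lowest values of their groups. The difference of log2((5p + 1)/(3p + 1)) was 0.09 (SE 0.12), and limma's Benjamini-Hochberg adjusted p was 0.736 over 67 hairpins with both arms tested. None of the 67 was called (0.0%; 12 at a limma unadjusted p under 0.05, smallest adjusted p = 0.157 by Benjamini-Hochberg). The 3p arm was the more abundant in 24 of the 67 hairpins, and in 13 its lead over the 5p arm exceeded that in miR-199a.

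The ratio of 2 of the mature miRNAs differed between the groups when tested alone: miR-214-3p was higher relative to miR-199a-3p in EWH. By itself miR-214-3p had a log2 fold change of 0.00 and miR-199a-3p one of −0.26, neither called by limma. MiR-199a-3p exceeded miR-214-3p by a factor of 153 (lowest), 179 (median) and 191 (highest) in control and 135, 143 and 159 in EWH. The 4 EWH libraries 3, 4, 5 and 6 lay below every control, while EWH 1 and 2 lay within the control range. On the scale log2((miR-214-3p + 1)/(miR-199a-3p + 1)) the means were −7.36 ± 0.12 in control and −7.10 ± 0.09 in EWH (n = 6 each, SD), a difference of 0.26 or 1.20-fold, larger than the spread between replicates (two-sided exact permutation p = 0.0065 over 924 splits). With each library left out in turn the difference stayed between 0.24 and 0.30, and the exact permutation p between 0.0043 and 0.013.

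That shift was not particular to miR-214-3p. Put over miR-199a-3p in the same way, 72 of the 302 other tested miRNAs had an exact permutation p under 0.05. Of these 69 were higher in EWH (22.8% of the 302). After Benjamini-Hochberg adjustment 43 of the 302 ratios passed. The ratio of miR-214-3p was among them, with an adjusted p of 0.0456 (exact permutation), and 36 of the 302 ratios had a smaller p. The median of the 302 differences was 0.20, so the ratio of miR-214-3p moved by little more than that of a typical miRNA. Put over miR-214-3p in place of miR-199a-3p, 56 of 302 ratios had an exact permutation p under 0.05, and 42 of these were higher in EWH. None passed after Benjamini-Hochberg adjustment (0.109 for miR-199a-3p). MiR-199a-5p exceeded miR-214-3p by a factor of 30.2 ± 5.25 in control and 26.9 ± 5.15 in EWH (n = 6 each, SD), with control 1 the highest at 40.1.

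**Figure D2:**
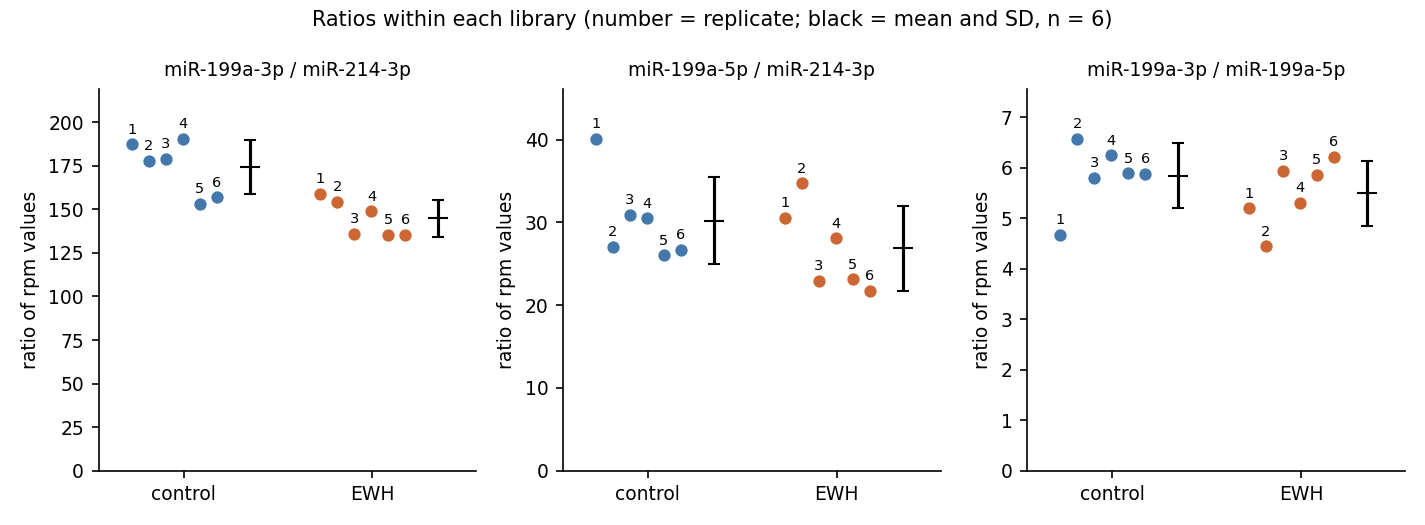
Ratio of rpm values within each library (y axis from 0), 1 point per library with its replicate number, and the mean with its SD in black (n = 6). For miR-199a-3p over miR-214-3p 4 EWH libraries lie below the lowest control at 153, and the other ratios overlap widely.

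The 2 arms of miR-199a varied together from library to library. Over the 12 libraries, log2(rpm + 1) of the miR-199a arms correlated at Pearson r = 0.864 (permutation p = 0.00029, with Benjamini-Hochberg adjustment over 6 pairs, miR-3120 included, adjusted p = 0.00174) and Spearman rho = 0.846 (permutation p = 0.00078, adjusted p = 0.00468). Within control r was 0.950 and within EWH 0.705, and it was 0.839 without EWH 2 and 3, the libraries farthest from the median of miR-199a-5p.

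Across the 2 hairpins, miR-199a-3p and miR-214-3p correlated at r = 0.831 (permutation p = 0.00165, adjusted p = 0.00495) and rho = 0.643 (permutation p = 0.0271, adjusted p = 0.0552), with r = 0.933 within control and 0.950 within EWH. Without control 1 and EWH 2, r over both groups together was 0.483, so the size of the pooled value depends on these libraries. The values within each group include them, and r within a group was not computed without them. For miR-199a-5p and miR-214-3p r was 0.585 (permutation p = 0.0431, adjusted p = 0.0518) and rho 0.524 (permutation p = 0.0828, adjusted p = 0.0994), with 0.908 within control, 0.472 within EWH and 0.542 without EWH 2 and 3.

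MiR-3120 was less closely tied to miR-214-3p than miR-199a-3p was, in values whose difference was not tested. The pair had r = 0.569 (permutation p = 0.0577, adjusted p = 0.0577) and rho = 0.364 (permutation p = 0.247, adjusted p = 0.247), with 0.653 within control, 0.503 within EWH and 0.0989 without control 1 and EWH 2. With miR-199a-3p it had r = 0.629 (permutation p = 0.0286, adjusted p = 0.0429) and rho = 0.531 (permutation p = 0.0800, adjusted p = 0.0994), and with miR-199a-5p r = 0.634 (permutation p = 0.0259, adjusted p = 0.0429) and rho = 0.643 (permutation p = 0.0276, adjusted p = 0.0552). Within control these were r = 0.512 and 0.320 and within EWH 0.718 and 0.933, and r fell to 0.335 and 0.302 without the 2 farthest libraries. All these values share per-million scaling, which ties them together.

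**Figure D3:**
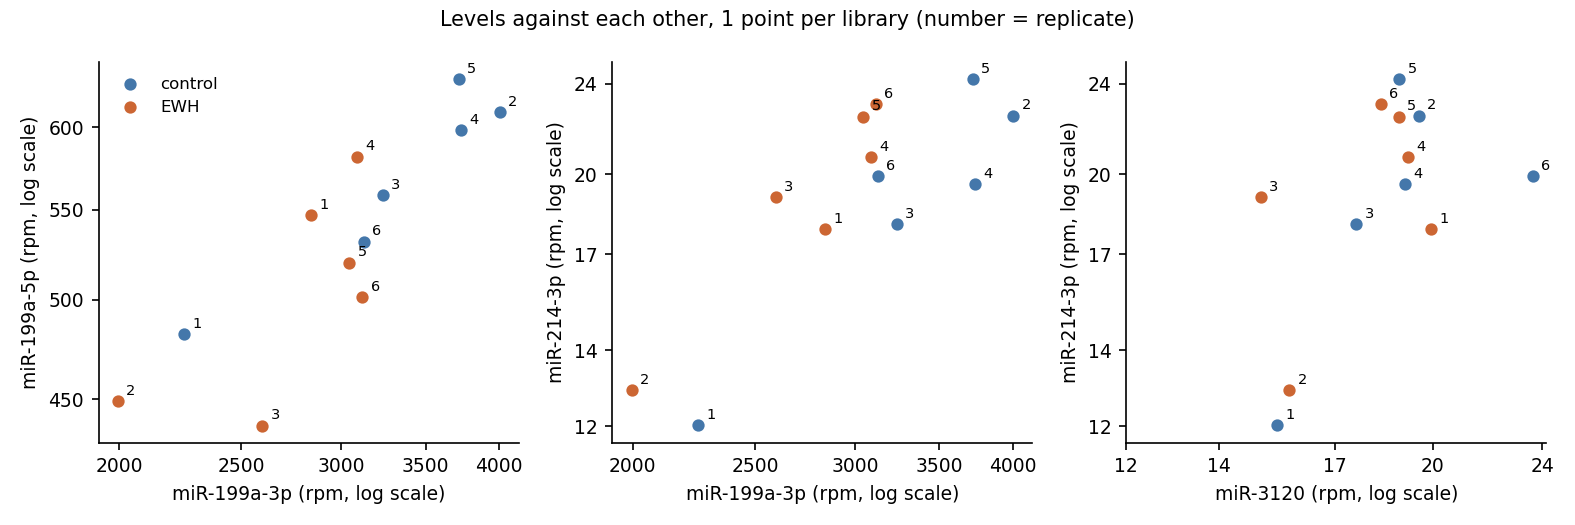
Levels (rpm, log axes) of miR-199a-5p against miR-199a-3p, miR-214-3p against miR-199a-3p and miR-214-3p against miR-3120, 1 point per library with its replicate number. In the plots of miR-214-3p, control 1 (12.02 rpm) and EWH 2 (12.9 rpm) lie apart from the other 10 libraries.

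Control 1 and EWH 2, the libraries lowest in miR-199a-3p and miR-214-3p, differed from each other in cell type markers. Endothelial markers summed to 12305 rpm in control 1, where the other libraries had 3290 to 6913 rpm. Control 1 was also the lowest of the 12 in erythrocyte markers (80.4 rpm, others 107 to 384 rpm) and hepatocyte markers (189 rpm, others 279 to 1465 rpm). Its leukocyte sum was the highest, 232 rpm, of which miR-150-5p made up 209 rpm, while miR-142-3p (14.9 rpm), miR-142-5p (2.72 rpm) and miR-223-3p (1.06 rpm) lay below their control means of 19.8, 5.69 and 2.24 rpm. In EWH 2 the endothelial sum was 5817 rpm, while its smooth muscle sum of 428677 rpm was the highest of the 12. Of that sum miR-143-3p made up 426996 rpm. The other smooth muscle markers were split in EWH 2. MiR-145-3p (668 rpm) was the highest of the EWH libraries and miR-145-5p (781 rpm) the lowest, and miR-143-5p (231 rpm) lay below its EWH mean of 243 rpm. EWH 2 also had the lowest median-of-ratios factor, which measures how high the miRNAs of a library typically lie beside the other libraries. It was 0.810, with the others between 0.910 and 1.17, so rpm values in EWH 2 ran low in general. With this scaling the log2 fold change of miR-199a-3p was −0.22. The part of these markers and of scaling in the levels of the cluster was not tested.

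As a description, the miRNAs whose log2(rpm + 1) followed each arm most closely over the 12 libraries were sought among the 183 tested miRNAs averaging at least 10 rpm. For miR-214-3p the first was miR-361-5p (r = 0.910), which averaged 16.3 ± 2.70 rpm over the controls and 15.8 ± 3.49 rpm over the EWH libraries (n = 6 each, SD). It was followed by miR-23a-3p (0.836), miR-199a-3p (0.831), miR-125b-5p (0.821) and miR-181b-5p (0.807). For miR-199a-3p they were miR-199a-5p (0.864), miR-23a-3p (0.862), miR-23b-3p (0.846), miR-214-3p (0.831) and miR-361-5p (0.823). The values of miR-199a-5p and miR-23a-3p were nearly level. Of those listed, miR-199a-5p had the highest r within control (0.950) and the lowest within EWH (0.705).

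For miR-199a-5p the closest after miR-199a-3p were miR-125b-5p (0.791), the cartilage and fibroblast miRNA miR-140-5p (0.786), miR-152-3p (0.763) and miR-186-5p (0.751). The most opposite was miR-708-3p for both miR-214-3p (−0.884) and miR-199a-3p (−0.768), followed by miR-203b-5p (−0.719) and miR-151-3p (−0.716) for the first and miR-99b-5p (−0.680) and miR-139-5p (−0.652) for the second. For miR-199a-5p the most opposite were the skeletal muscle miRNA miR-206-3p (−0.576), miR-340-3p (−0.551) and miR-3596d (−0.530). Not all of these values held within each group. With miR-199a-3p, miR-139-5p had r = −0.976 within control and 0.084 within EWH, and miR-99b-5p −0.846 and −0.157. With miR-199a-5p, miR-186-5p had 0.152 and 0.895. MiR-708-3p was opposite within both groups, for miR-199a-3p (−0.935 and −0.750) and for miR-214-3p (−0.918 and −0.839).

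Other miRNAs known from mesenchymal cells were taken as 1 list of 15, all tested, which leaves out the cluster itself. None was called by limma or edgeR after Benjamini-Hochberg adjustment, while DESeq2 called 2, miR-22-3p (adjusted p = 0.0158) and miR-140-3p (0.0275), beside 20.8% of all tested miRNAs. By limma 4 had an unadjusted p under 0.05, all lower in EWH, beside 7.92% of all tested (miR-140-3p at −0.55, miR-31a-5p at −0.37, miR-22-3p at −0.27 and miR-140-5p at −0.24, named after their values were seen). In all 13 of the 15 had lower means on the log scale in EWH and 2 higher, while 182 of all 303 tested miRNAs were lower. The list's median was −0.24 on the log2 scale, beside −0.06 over all tested miRNAs. The 3 most abundant were miR-143-3p, the main smooth muscle miRNA (395202 ± 31339 and 383398 ± 36932 rpm in control and EWH), miR-125b-5p (6750 ± 1044 and 6312 ± 807 rpm) and miR-100-5p (5344 ± 109 and 5139 ± 475 rpm; n = 6 each, SD). The value of miR-199a-3p lay near the median of this list, and that of miR-214-3p above it.

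Of 8 miRNAs known to promote fibrosis, 6 were tested and none was called by limma, while edgeR (13.2% of all tested) and DESeq2 (20.8%) each called 1 (miR-433-3p, at log2 1.82 by limma, named after its value was seen). By limma's unadjusted p under 0.05, miR-21-5p was lower and miR-433-3p higher, and 5 of 6 lay lower in EWH; their median log2 fold change was −0.33. Of all 303 tested miRNAs 182 lay lower, with a median of −0.06. The most abundant were miR-21-5p, which rises in injured vessels, at 7380 ± 1503 and 5804 ± 836 rpm in control and EWH, miR-192-5p at 138 ± 88.4 and 87.7 ± 13.5 rpm and miR-155-5p at 54.4 ± 9.64 and 50.9 ± 12.6 rpm (n = 6 each, SD). All 8 miRNAs of the list known to limit fibrosis were tested and lay lower in EWH, with a median of −0.19, to be read against the same 182 of 303. None was called by limma or edgeR, while DESeq2 called miR-29a-3p (Benjamini-Hochberg adjusted p = 0.0247), which had a limma unadjusted p under 0.05. They were led by miR-30a-5p at 2275 ± 257 and 1961 ± 245 rpm, miR-30c-5p at 1890 ± 150 and 1770 ± 151 rpm and miR-29a-3p, which targets collagens, at 709 ± 112 and 568 ± 68.8 rpm (n = 6 each, SD).

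**Figure D4:**
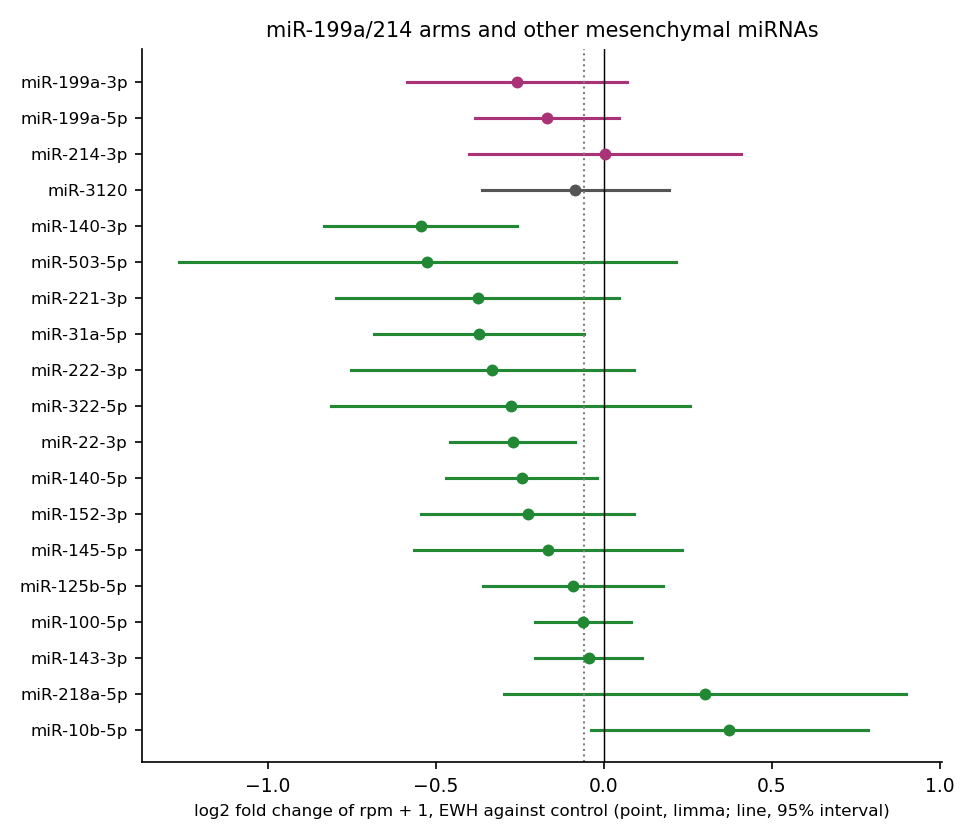
Log2 fold change of rpm + 1, EWH against control (x axis; point, limma estimate; line, 95% interval), for the 3 tested arms of the cluster, miR-3120 and the 15 miRNAs of the mesenchymal list sorted by value; the dotted line is the median of all 303 tested miRNAs at −0.06. The intervals of the 3 arms all include 0, and miR-199a-3p at −0.26 lies near the middle of the mesenchymal list.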

How the data were processed

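Small RNA was sequenced from 12 aorta samples. Per the labels' protocols, RNA was extracted with Trizol and inserts of 15 to 35 nt were kept. The genome build was rn6, per the submitters' processing notes. No aligner, counter, miRNA annotation or strand setting is given in the sources used here. Values in the table the authors deposited are in reads-per-million (RPM) units: the table is named for TPM, but 100% of the values were whole reads times 1 step per library (tolerance 0.01 read).

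Members and lists were chosen with earlier results of these data known. The 303 of 641 miRNAs reaching 1 rpm in 6 or more libraries were tested on log2(rpm + 1) with limma 3.58.1 (trend, two-sided; R 4.3.3), with Benjamini-Hochberg adjustment over all tested and a threshold of 0.05; the log2 scale understates changes of low miRNAs. Arm ratios over 67 hairpins were compared with limma, and the miR-214-3p to miR-199a-3p ratio by exact permutation. Correlations used 100000 permutations. Alternatives were other filters, pseudocounts and scalings, limma settings, a replicate block, each library left out, and edgeR 4.0.16 and DESeq2 1.42.0 on recovered reads. Named miRNAs were the members, miR-3120, those sharing a seed, the nearest by level and by correlation, and the 3 most abundant of each list; the nearest 1 on each side by level are printed. The fits were also run on simulated reads with a spread setting common to all miRNAs, and no result here rests on that run. Sequences are from RefSeq (GRCr8).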

Additional observations from a re-analysis of the deposited data

Results flagged for a closer look

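Among 16 sets of 6 libraries checked for a library far from the others, 2 stood out. Chance marks about 1 in 20 sets where values are normally distributed. That rate is only a rough guide here, since sets share members and miR-214-5p was at 0 in most libraries. In control, miR-214-5p was highest in control 2 at 0.125 rpm, which is 3 reads, with the next at 0.0409 rpm. The ratio of miR-199a-5p to miR-214-3p was 40.1 in control 1, with the next control at 30.9.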

How the results depend on the processing

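The log2 fold changes of miR-199a-3p (−0.37 to −0.17) and miR-199a-5p (−0.22 to −0.13) stayed negative, and that of the miR-199a arm ratio (0.03 to 0.15) positive, under all alternatives run, and none of them passed an adjusted threshold (smallest adjusted p 0.0675, for miR-199a-3p by edgeR's quasi-likelihood test with control 1 left out, Benjamini-Hochberg). The log2 fold change of miR-214-3p, 0.00, changed sign after quantile normalization (−0.082) and in edgeR with control 1 left out (−0.10), and ran from −0.12 to 0.11 with each library left out in turn. MiR-214-5p was given by its reads, with no test. The miRNAs called numbered 0 in limma, 8 after quantile normalization, 40 in edgeR, 63 in DESeq2, 0 in edgeR with control 1 left out (added after seeing the data) and 0 to 24 with a library left out. The ratio of miR-214-3p to miR-199a-3p differed by 0.24 to 0.30, with an unadjusted exact permutation p of 0.00216 to 0.0313 over the alternatives run. The p adjusted over 302 ratios was not recomputed under them, and was 0.0456 with miR-199a-3p as the reference and 0.109 with miR-214-3p as the reference.

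The replicate numbers are shared by the groups, but same-numbered libraries did not deviate together (r from −0.504 to 0.313, and 0 of 6 controls correlated best with the EWH library of the same number). Whether they share more than a number cannot be told from these values. With the replicate block limma called 0 miRNAs, and the ratio test over 6 pairs gave an exact permutation p of 0.0313, the smallest that 6 pairs allow. Depth limits miR-214-5p, whose reads do not exceed the floor, and miR-214-3p only slightly.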
